A study of Saccharomyces cerevisiae with 24 samples.

Results

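The 9 genes described here encode amino acid permeases of the yeast plasma membrane, namely DIP5, AGP1, GNP1, BAP2, BAP3, TAT1, TAT2, GAP1 and CAN1. They were taken by gene identifier from the 6814 genes of the joined count tables, 9 of 9 were found, and 9 of 9 passed the filter on low counts in every comparison. The set was chosen by gene name with the read counts of these same libraries in view, so levels and fold changes of the 9 genes in these 8 groups are the values it was selected on. The p-values below, which come from fits over all genes, therefore place each difference against the spread between libraries and are not independent support for the choice of genes.

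RNA-seq was used to compare Saccharomyces cerevisiae strains that differ in phosphatidylserine decarboxylase 1 (Psd1), the mitochondrial enzyme that makes phosphatidylethanolamine (PE). Both strains are of the GA74-1A background and lack the chromosomal PSD1 and PSD2 genes. The mutant strain, psd2deltapsd1delta::Psd1-LGS/AAA, carries a Psd1 whose LGS motif was changed to AAA, which per the labels blocks autocatalysis and leaves the strain auxotrophic for ethanolamine. The control strain, psd2deltapsd1delta::Psd1-3XFLAG, carries a functional, FLAG-tagged Psd1 from the plasmid pRS305. The mutant groups were LGE in YPD with 2 mM ethanolamine, LGL in YPD with 1% tergitol, a detergent, and 0.5 mM lyso-PE, LGC in YPD with 2 mM choline, and LGD in plain YPD. The control groups were WTE, WTL, WTC and WTD in the same media. YPD is a rich medium of yeast extract, tryptone and dextrose, so amino acids and peptides were present in every culture. Each group held 3 libraries, 24 in all. Each genotype is represented by 1 strain, so the allele and any other difference between the strains cannot be told apart, and with no group in tergitol alone the detergent and lyso-PE cannot be told apart.

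The 9 proteins belong to one family of proton-driven amino acid transporters. Yeast senses external amino acids through Ssy1, Ptr3 and Ssy5 (the SPS sensor), which release the transcription factors Stp1 and Stp2 to switch on permease genes such as AGP1, GNP1, BAP2, BAP3, TAT1, TAT2 and DIP5. GAP1 is instead known for repression by good nitrogen sources and for activation by the GATA factors Gln3 and Gat1. New permeases leave the endoplasmic reticulum with the help of the chaperone Shr3, the ubiquitin ligase Rsp5 and its adaptors take them off the plasma membrane, and yeast with too little PE is known to deliver some permeases poorly to the cell surface.

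Short sequences tied to these 2 routes were counted upstream of the permease genes. The stretch from 550 to 251 bases before the start codon is shown for 5 genes. The 300-base window was chosen after the matches had been seen, and the bases are from the RefSeq R64 genome, on whose coordinates the deposited gene positions also lie. Capitals mark CGGC or its reverse complement GCCG, the 4-base core known from upstream elements of SPS-controlled permease genes, and GATAAG or its reverse complement CTTATC, the GATA-factor site. Both strands were searched and overlapping matches were counted separately. DIP5 is shown because its level differed most between the strains, TAT1 and BAP2 because they are neighbours on chromosome II with 883 bases between their coding sequences and hold the most CGGC cores, and AGP1 and GAP1 because both fell in ethanolamine and choline medium in the control strain. The windows are DIP5 at chrXVI:40493-40792 on the plus strand, TAT1 at chrII:378684-378983 on the minus strand, BAP2 at chrII:375941-376240 on the minus strand, AGP1 at chrIII:78170-78469 on the minus strand and GAP1 at chrXI:514513-514812 on the plus strand, each 5′ to 3′ on the strand of its gene.
DIP5: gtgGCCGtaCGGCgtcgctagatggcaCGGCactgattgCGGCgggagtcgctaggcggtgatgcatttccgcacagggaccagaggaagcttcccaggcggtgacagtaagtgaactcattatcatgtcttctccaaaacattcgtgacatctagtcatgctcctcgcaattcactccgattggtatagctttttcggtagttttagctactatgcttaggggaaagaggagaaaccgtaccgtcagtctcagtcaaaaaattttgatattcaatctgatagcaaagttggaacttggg
TAT1: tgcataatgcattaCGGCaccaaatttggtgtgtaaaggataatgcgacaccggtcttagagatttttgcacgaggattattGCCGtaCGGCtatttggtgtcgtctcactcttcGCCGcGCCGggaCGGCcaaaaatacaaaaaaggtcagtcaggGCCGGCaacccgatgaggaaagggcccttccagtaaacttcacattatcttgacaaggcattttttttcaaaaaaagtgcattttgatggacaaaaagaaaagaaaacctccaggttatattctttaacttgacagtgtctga
BAP2: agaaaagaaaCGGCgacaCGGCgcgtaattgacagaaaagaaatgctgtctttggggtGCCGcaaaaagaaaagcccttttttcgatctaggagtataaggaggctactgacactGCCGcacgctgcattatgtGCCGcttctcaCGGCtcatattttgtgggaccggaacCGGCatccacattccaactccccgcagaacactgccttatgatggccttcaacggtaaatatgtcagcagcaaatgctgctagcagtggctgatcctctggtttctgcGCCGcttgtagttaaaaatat
AGP1: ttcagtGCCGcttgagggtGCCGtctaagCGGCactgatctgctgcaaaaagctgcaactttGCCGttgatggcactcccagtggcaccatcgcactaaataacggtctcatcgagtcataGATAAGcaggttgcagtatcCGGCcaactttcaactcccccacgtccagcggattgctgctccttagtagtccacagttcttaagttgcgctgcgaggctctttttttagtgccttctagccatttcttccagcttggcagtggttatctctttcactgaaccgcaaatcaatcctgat
GAP1: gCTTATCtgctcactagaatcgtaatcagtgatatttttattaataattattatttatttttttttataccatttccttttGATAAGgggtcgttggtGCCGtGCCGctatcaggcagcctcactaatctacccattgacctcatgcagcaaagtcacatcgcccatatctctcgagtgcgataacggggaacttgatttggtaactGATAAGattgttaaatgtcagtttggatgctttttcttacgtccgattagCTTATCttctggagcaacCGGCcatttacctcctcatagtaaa
None of these windows holds an annotated gene.

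CGGC occurred in the windows of 9 of the 9 permease genes and in 55.1% of 6373 windows of the same length and position before protein-coding genes of the nuclear chromosomes. Windows that overlap another gene were kept among these, whereas none of the 9 permease windows holds an annotated gene. TAT1 and BAP2 each held 8 matches, a number reached by 0.0941% of windows. GNP1 held 7 (reached by 0.298% of windows), BAP3 held 6 (0.628%), AGP1 held 5 (1.49%) and DIP5 held 4 (3.97%). TAT2 and GAP1 each held 3 (9.54%), and CAN1 held 1 (55.1%). GATAAG occurred in 13.9% of all windows and in 3 of the 9: GAP1 held 4 matches (reached by 0.0785% of windows), CAN1 held 3 (0.188%) and AGP1 held 1. These are matches of letters and not tested sites, and in BAP3 and TAT1 some matches lie on each other on opposite strands. The window was chosen with the matches in view and bases outside it were not counted, so the percentages are descriptions of this window only.

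**Figure D1:**
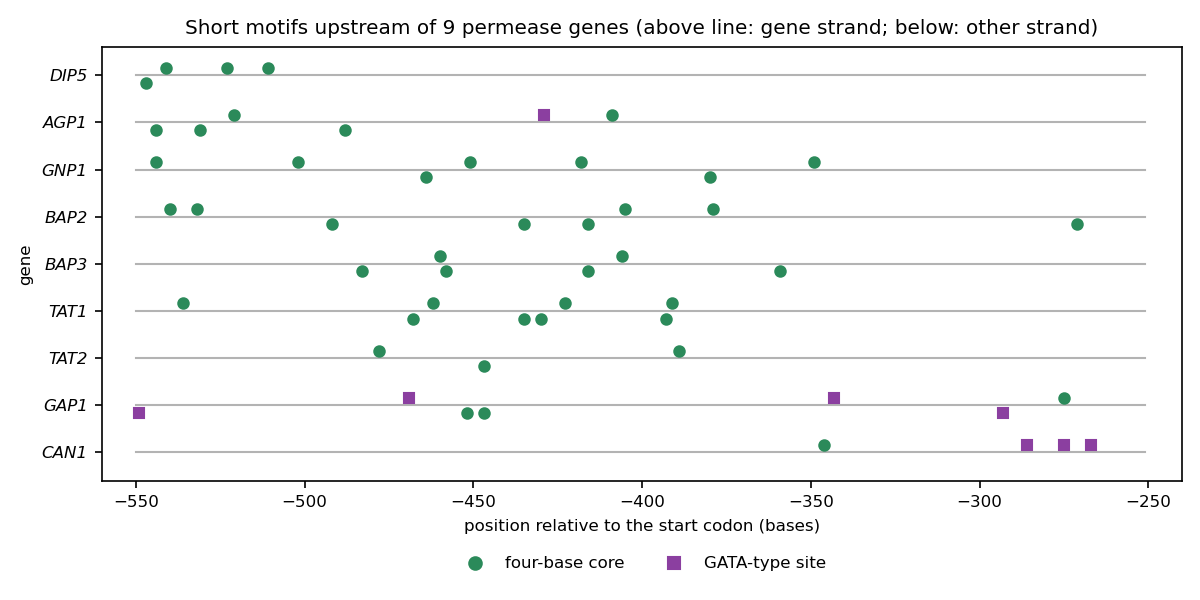
Matches of CGGC (circles) and GATAAG (squares) from 550 to 251 bases before the start codon of each permease gene; the horizontal axis is the position in bases relative to the start codon, and marks above or below a line lie on the strand of the gene or on the other strand. Circles are densest for TAT1 and BAP2, with 8 each, and squares occur in GAP1, CAN1 and AGP1, with 4, 3 and 1.

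Library totals ran from 16044470 to 20946936 counts, and the 9 genes together took 0.16% to 0.307% of them. The lowest count of any of the 9 was 296, for GAP1 in LGL, and the highest was 23564, for BAP2 in LGD. Replicates 1 and 2 were the closest pair in 8 of 8 groups, with a correlation of log2 CPM across genes of 0.99 to 0.994, against 0.951 to 0.988 for pairs with replicate 3. The labels do not say that replicates are separate cultures, so p-values measure the spread between these libraries, which may be technical. PSD1 counts, at 549.9 ± 131 CPM in LGD and 862 ± 26.8 CPM in WTD (SD, n = 3 each), do not tell the 2 alleles apart and so do not check the strain labels. Within the set, AGP1 and GNP1 shared 71.2% of aligned coding bases and BAP2 and BAP3 shared 70%, but 0 stretches of 50 bases of any of the 9 coding sequences recur in another protein-coding gene. GNP1 overlaps YDR509W on the opposite strand, and with the strandedness of counting not given its counts could include reads of that gene.

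Levels are given as CPM, a gene's counts relative to a library size scaled by TMM over the 24 libraries, and they are shares of the RNA counted, so less RNA per cell and a larger total of other RNA cannot be told apart. Per kilobase of coding sequence and as a mean over the 24 libraries, BAP2 was the most abundant at 480.1 CPM per kb, followed by BAP3 at 193, GNP1 at 160.2, DIP5 at 132, TAT2 at 122, CAN1 at 108, TAT1 at 79.5, AGP1 at 34.8 and GAP1 at 14.7 CPM per kb. The sum over the 9 genes averaged 2547 ± 552 CPM in LGD and 2538 ± 35.9 CPM in WTD (SD, n = 3 each), so the strains did not differ in the total beyond the spread of their libraries in plain medium. By library it was 2849, 2882 and 1910 CPM in LGD, against 2516, 2519 and 2579 CPM in WTD. Replicates 1 and 2 were thus higher in LGD and replicate 3 was lower. BAP2 was the largest part of the sum, at 1021 CPM in LGD and 696 CPM in WTD. In LGL the sum was 2038 ± 47.6 CPM and in WTL it was 2497 ± 154 CPM. In LGC it was 1988 ± 369 CPM and in WTC it was 2978 ± 424 CPM, and in LGE it was 2469 ± 66.0 CPM against 2456 ± 642 CPM in WTE (SD, n = 3 each).

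**Figure D2:**
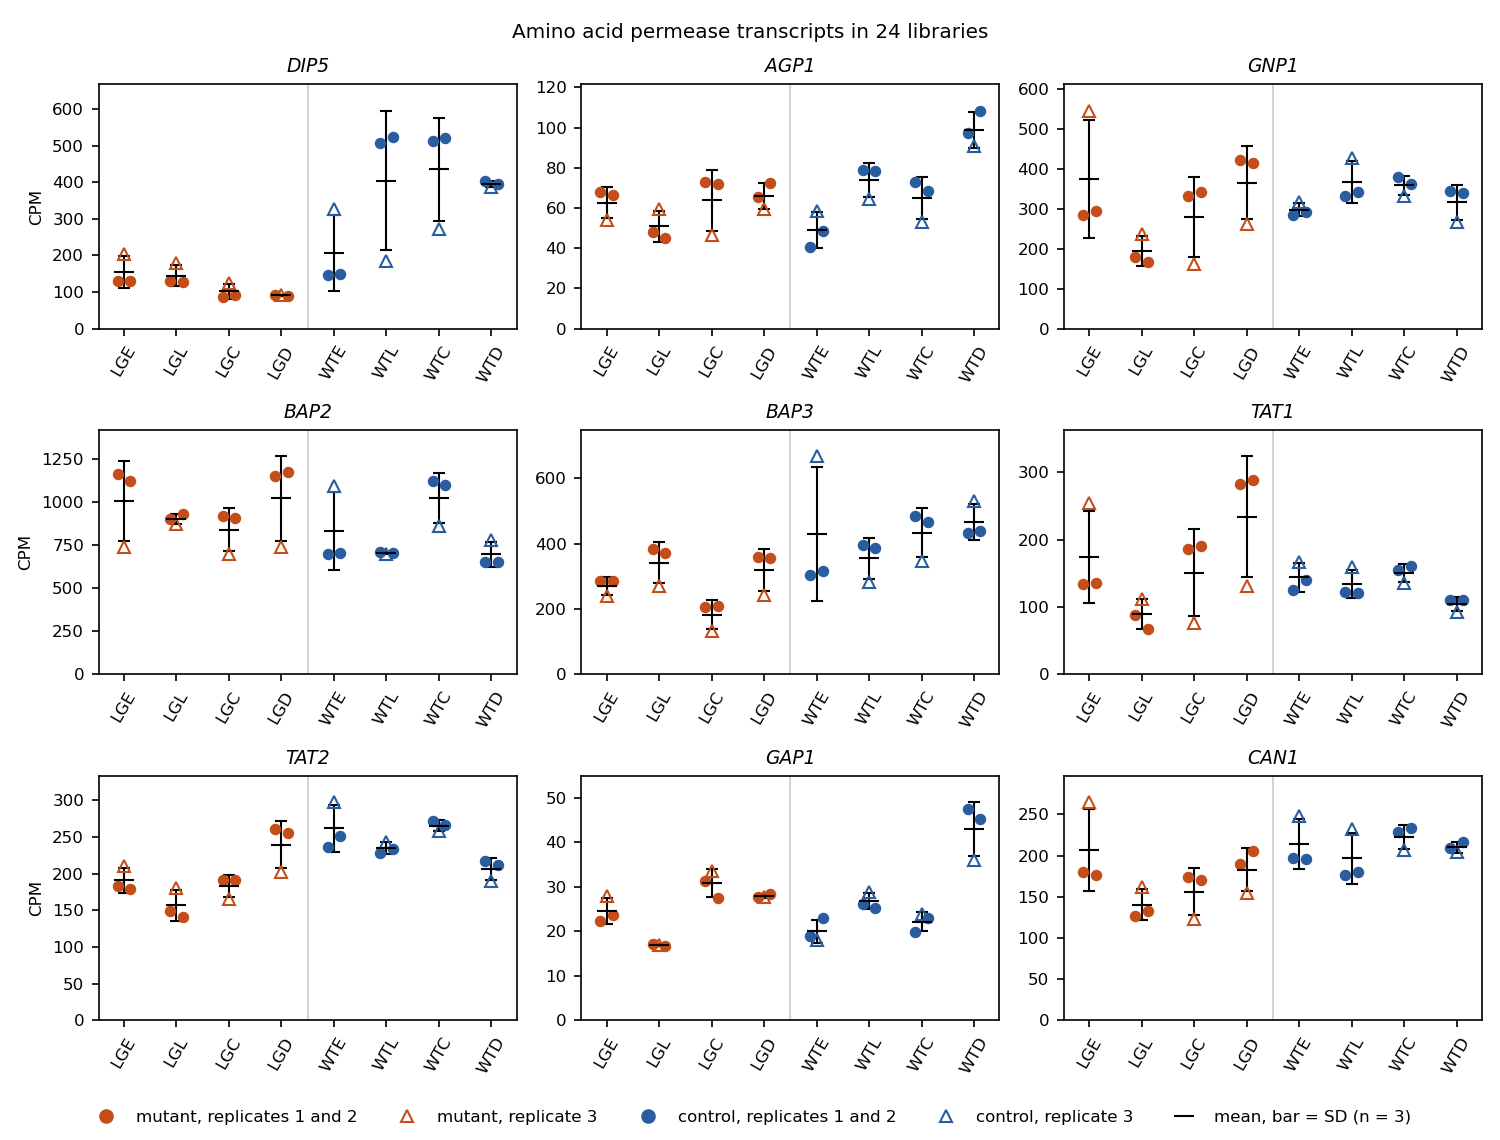
CPM of each permease gene in the 24 libraries, by group, with filled points for replicates 1 and 2, triangles for replicate 3 and the mean ± SD; vertical scales differ between genes and start at 0. DIP5 lies near 90 CPM in the 3 LGD libraries against 387 to 404 CPM in WTD, and GAP1 is lowest in LGL and highest in WTD.

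Across the 9 genes, the strain difference in plain YPD went in both directions and was largest for DIP5. In LGD against WTD, 4 of the 9 fell (DIP5, AGP1, BAP3 and GAP1) and 1 rose (TAT1) at an adjusted p under 0.05, where 36.8% of the 6168 genes tested were called, 19.5% higher and 17.3% lower. The median log2 fold change of the 9 was -0.22 and that of all genes was 0.01. The DESeq2 Wald test called 6 of the 9 in this comparison, with 43.1% of genes called. In LGC against WTC, 3 of the 9 fell (DIP5, BAP3 and TAT2) and none rose, with 16.6% of genes called, 9.7% higher and 6.93% lower. Blocking on replicate number gave 4 calls there (20.9% of genes), the DESeq2 Wald test 5 (27.7%) and the fit of all 24 libraries 5 (18.9%). Summing replicates 1 and 2 left 0 of 9, with 0% of genes called. In LGE against WTE, 0 of 9 were called by edgeR with 0.836% of genes called, 0.627% higher and 0.209% lower. There 1 of the 9 had an unadjusted p under 0.05, as did 1023 of the 6220 genes tested. The DESeq2 Wald test called 0 of the 9 (7.81% of genes), and the fit of all 24 libraries called 1 (8.37% of genes). In LGL against WTL, 0 of 9 were called, with 1.52% of genes called, 1.18% higher and 0.34% lower. An unadjusted p under 0.05 was held by 8 of the 9 and by 1475 of the 6169 genes tested. The DESeq2 Wald test called 6 there, with 13.2% of genes called, and a fit blocked on replicate number also called 6 (GNP1, TAT1, TAT2, GAP1 and CAN1 lower, BAP2 higher), with 20.1% of genes called. With replicates 1 and 2 summed it was 0 of 9, with 0% of genes called. The replicate numbers deviate together in that comparison (correlations of 0.25 to 0.45), so the blocked count stands beside the unblocked one. As replicates 1 and 2 nearly coincide, these correlations mostly reflect replicate 3. Blocked p-values leave out the part of its shift that both groups share.

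Within the mutant strain, calls of edgeR's unblocked fit were made for tergitol with lyso-PE alone. In LGL against LGD, GNP1, TAT1, TAT2 and GAP1 fell and DIP5 rose, 5 of 9, with 13.3% of genes called, 5.82% higher and 7.43% lower. All 5 calls were lost without LGL1, LGL2, LGD1 or LGD2, the digit being the replicate, with adjusted p-values from 0.0846 to 0.198. In those fits 0.016% to 0.529% of all genes were called. When replicates 1 and 2 were summed 0 of 9 were called, with 0% of genes called. In LGE against LGD, 0 of 9 were called by edgeR, with 0.225% of genes called (0.0322% higher and 0.193% lower). An unadjusted p under 0.05 was held by 1 of the 9 and by 598 of the 6213 genes tested. The DESeq2 Wald test called 1 of the 9 and 2.83% of genes. In LGC against LGD, 0 of 9 were called, with 0% of genes called. An unadjusted p under 0.05 was held by 2 of the 9 and by 899 of the 6198 genes tested. The DESeq2 Wald test called 1 of the 9 and 5.26% of genes. With the replicate block, for which same-numbered libraries of LGC and LGD correlated at 0.38 to 0.61, 5 of 9 were lower in LGC (GNP1, BAP3, TAT1, TAT2 and CAN1), with 24.6% of genes called, and with replicates 1 and 2 summed it was 0 of 9, with 0% of genes called. The 3 comparisons share the LGD libraries.

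Within the control strain, GAP1 fell with each supplement. In WTE against WTD, AGP1 and GAP1 fell and TAT1 rose, 3 of 9, with 22.6% of genes called (11.6% higher and 11% lower), and the replicate block added DIP5 (log2 fold change -1.02, adjusted p 0.00814) and TAT2 (0.36, adjusted p 0.0455), with same-numbered libraries correlated at 0.19 to 0.43 and 33.6% of genes called. In WTL against WTD, GAP1 alone was called, 1 of 9, with 12.7% of genes called, 6.82% higher and 5.92% lower. In WTC against WTD, AGP1 and GAP1 fell and BAP2, TAT1 and TAT2 rose, 5 of 9, with 19.1% of genes called, 10.1% higher and 9.05% lower. The 3 comparisons share the WTD libraries.

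**Figure D3:**
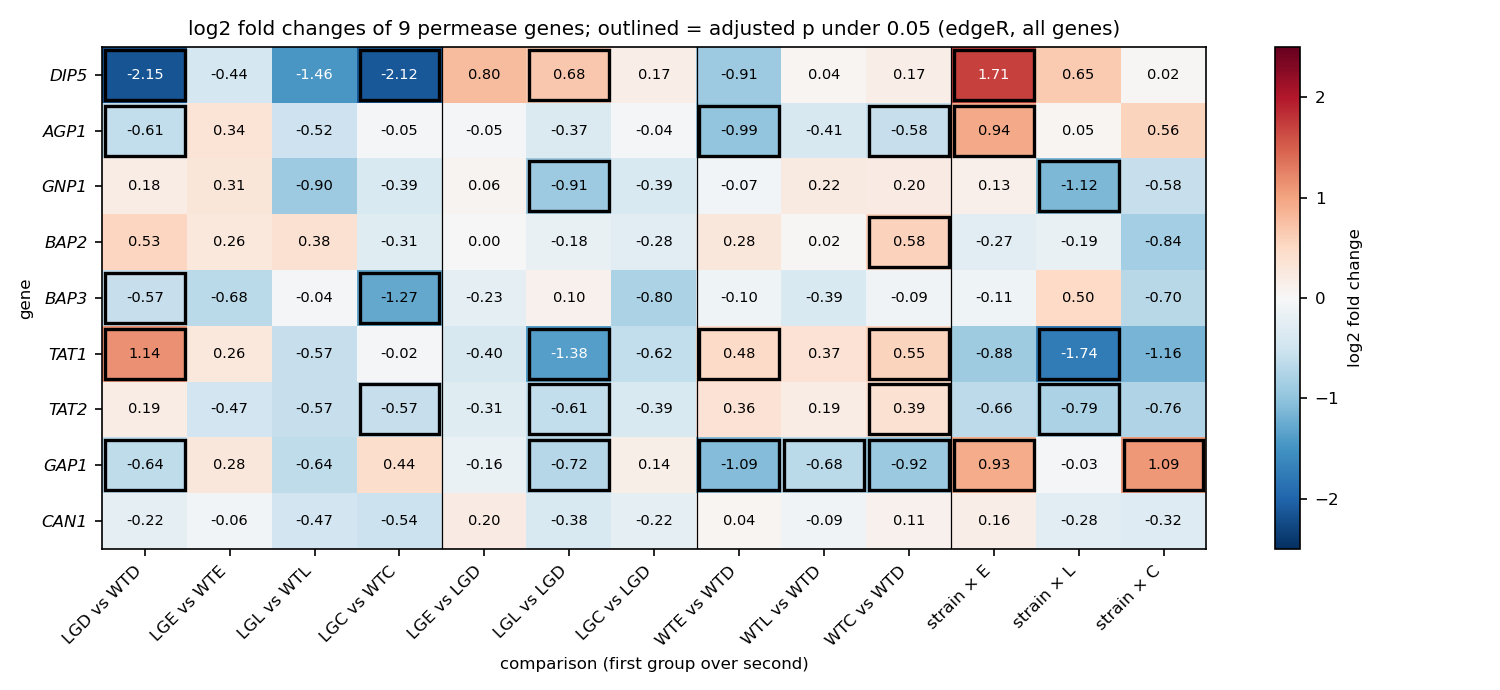
Log2 fold changes of the 9 permease genes (rows) in 10 pairwise comparisons and in 3 tests of whether the effect of ethanolamine (E), lyso-PE medium (L) or choline (C) differs between the strains (columns); colour and number give the log2 value, and an outline marks an adjusted p under 0.05. The darkest blue cells are DIP5 in LGD vs WTD and LGC vs WTC (-2.15 and -2.12), and the outlined GAP1 cells are negative in all 3 media of the control strain.

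DIP5 (YPL265W) encodes the high-affinity permease for glutamate and aspartate. In plain YPD it had 92.0, 89.2 and 90.6 CPM in LGD, against 404, 394 and 387 CPM in WTD. The 3 mutant libraries lay together and far below the 3 control libraries. The log2 fold change was -2.15 ± 0.09 (SE), a level 4.43-fold lower in LGD (adjusted p 0.000348, edgeR's quasi-likelihood test with Benjamini-Hochberg adjustment, as for all adjusted p-values below). The call held without any 1 of the 6 libraries (adjusted p up to 0.00729) and with replicates 1 and 2 summed (0.0453). In choline medium DIP5 had 86.6, 92.8 and 125.5 CPM in LGC, against 513, 521 and 273 CPM in WTC. The groups did not overlap, and the log2 fold change was -2.12 ± 0.29 (adjusted p 0.00658, up to 0.0427 without any 1 library and 0.124 with replicates 1 and 2 summed). In lyso-PE medium it had 129.8, 126 and 178 CPM in LGL, against 506, 523 and 184 CPM in WTL. Replicate 3 of WTL stood beside the mutant libraries, and the difference of -1.46 ± 0.38 did not pass (adjusted p 0.0915). In ethanolamine medium the groups overlapped, with 129.8, 131 and 205 CPM in LGE and 146.5, 148 and 327 CPM in WTE (log2 fold change -0.44 ± 0.35, adjusted p 0.574).

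Among the mutant groups, DIP5 rose in LGL relative to LGD by 0.68 ± 0.16 on the log2 scale (adjusted p 0.0394, and 0.0989 to 0.157 without LGL1, LGL2, LGD1 or LGD2). In LGE relative to LGD the value was 0.80 ± 0.21 with an adjusted p of 0.285, although all libraries of LGE lay above all of LGD. The unadjusted p-values of the same test were 0.00774 for LGE and 0.00373 for LGL. The share of all genes called was 0.225% in LGE against LGD and 13.3% in LGL against LGD. Ordered by mean level, the groups ran LGD, LGC, LGL, LGE, WTE, WTD, WTL and WTC. The libraries of neighbouring groups in that order overlapped except between LGC and LGL and between WTE and WTD. All 4 mutant means thus lay below all 4 control means, from 90.6 ± 1.39 CPM in LGD to 436 CPM in WTC.

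AGP1 (YCL025C) encodes a broad, low-affinity permease. It had 65.6, 72.4 and 59.4 CPM in LGD, against 97.2, 108 and 90.7 CPM in WTD. No mutant library reached a control one, and AGP1 fell in the mutant by 0.61 ± 0.12 on the log2 scale (adjusted p 0.00869, up to 0.043 without any 1 library and 0.114 with replicates 1 and 2 summed). In the control strain it had 40.6, 48.6 and 58.4 CPM in WTE and 73.0, 68.4 and 53.1 CPM in WTC, both below the WTD values. The log2 fold change was -0.99 ± 0.14 in WTE (adjusted p 0.00243, up to 0.014 without any 1 library and 0.0333 with replicates 1 and 2 summed). In WTC it was -0.58 ± 0.13 (adjusted p 0.0198, and 0.0587 to 0.0822 without WTC2, WTD1 or WTD2). In WTL, with 78.9, 78.4 and 64.4 CPM, it was -0.41 ± 0.11 (adjusted p 0.0569). The mutant groups in supplemented media had 67.8, 66.3 and 54.0 CPM in LGE, 48.3, 44.9 and 59.5 CPM in LGL and 72.9, 72.0 and 46.4 CPM in LGC. Each overlapped LGD, and none of the 3 differences passed (log2 fold changes -0.05, -0.37 and -0.04).

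GAP1 (YKR039W) encodes the general amino acid permease and was the least abundant of the 9. It had 27.7, 28.3 and 27.7 CPM in LGD, against 47.5, 45.3 and 36.1 CPM in WTD. The mutant libraries were the lower in every pairing, and GAP1 fell in the mutant by 0.64 ± 0.12 on the log2 scale (adjusted p 0.00886, up to 0.0438 without any 1 library and 0.136 with replicates 1 and 2 summed). In the control strain it had 19.0, 22.9 and 18.0 CPM in WTE, 26.2, 25.3 and 28.9 CPM in WTL and 19.7, 23.0 and 23.9 CPM in WTC. All 9 of these libraries lay below all 3 of WTD. The log2 fold change was -1.09 ± 0.14 in WTE (adjusted p 0.00181, up to 0.0121 without any 1 library and 0.0234 with replicates 1 and 2 summed) and -0.92 ± 0.13 in WTC (adjusted p 0.0043, up to 0.0252 without any 1 library and 0.0763 summed). In WTL it was -0.68 ± 0.13 (adjusted p 0.0227), and that call was lost without WTL1, WTL2, WTD1 or WTD2 (0.0756 to 0.116).

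In the mutant, GAP1 had 17.1, 16.8 and 17.0 CPM in LGL, the lowest of the 8 groups and below every library of the other 7. It fell relative to LGD by 0.72 ± 0.12 on the log2 scale (adjusted p 0.0216, and 0.0846 to 0.118 without LGL1, LGL2, LGD1 or LGD2). Relative to WTL the difference was -0.64 ± 0.13 with an adjusted p of 0.0572 unblocked and 0.0232 with the replicate block. In LGC it had 31.2, 27.4 and 33.6 CPM, above the 3 libraries of WTC, but the log2 fold change of 0.44 ± 0.13 did not pass (adjusted p 0.0618). In LGE it had 22.3, 23.6 and 27.8 CPM, which overlapped both LGD and WTE.

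GNP1 (YDR508C) encodes the high-affinity glutamine permease. It had 179, 167 and 237 CPM in LGL, against 422, 414 and 261 CPM in LGD. The groups did not overlap, and GNP1 fell by 0.91 ± 0.23 on the log2 scale (adjusted p 0.0442, and 0.148 to 0.179 without LGL1, LGL2, LGD1 or LGD2). WTL had 333, 342.5 and 427 CPM, all above LGL, a log2 fold change of -0.90 ± 0.18 with an adjusted p of 0.0564 unblocked and 0.00316 with the replicate block. In the other groups GNP1 had 285, 295 and 545.5 CPM in LGE, 331, 342 and 163 CPM in LGC, 285, 293 and 316 CPM in WTE, 379.5, 363 and 333 CPM in WTC and 343, 340.4 and 266 CPM in WTD. LGD and WTD overlapped (log2 fold change 0.18 ± 0.21, adjusted p 0.521). In the order of mean levels from LGL to LGE, every pair of neighbouring groups overlapped.

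BAP2 (YBR068C) and BAP3 (YDR046C) encode permeases for branched-chain amino acids, and BAP3 also takes up other neutral ones. BAP3 had 358, 357 and 244 CPM in LGD, against 433, 439 and 531 CPM in WTD. All mutant libraries lay below all control ones, and BAP3 fell by 0.57 ± 0.18 on the log2 scale (adjusted p 0.0456). That call was lost without LGD1, LGD2, WTD1, WTD2 or WTD3 (0.0671 to 0.132) and with replicates 1 and 2 summed (0.183). In choline medium BAP3 had 206, 210.4 and 131.5 CPM in LGC, the lowest group, against 485, 467 and 348 CPM in WTC. It fell by 1.27 ± 0.22, a level 2.42-fold lower (adjusted p 0.013, 0.0663 without WTC1 and 0.0714 without WTC2). LGC also lay below all libraries of LGD, by a log2 value of -0.80 ± 0.24 (adjusted p 0.268 unblocked, 0.00569 with the replicate block). BAP3 had 285.5, 286 and 239 CPM in LGE and 384.5, 372 and 269.9 CPM in LGL, against 303, 318 and 667 CPM in WTE and 396.5, 387 and 283 CPM in WTL. Both pairs differed by less than passed the test (log2 fold changes -0.68 ± 0.32 and -0.04 ± 0.20).

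BAP2 had 1150, 1174 and 739.9 CPM in LGD, against 653, 652 and 782.5 CPM in WTD. Replicates 1 and 2 of the mutant were high and replicate 3 lay within the control range, and the log2 fold change of 0.53 ± 0.20 did not pass (adjusted p 0.0816). BAP2 had 1120, 1097 and 859 CPM in WTC, all above WTD, and rose there by 0.58 ± 0.14 (adjusted p 0.0266, and 0.0958 to 0.12 without WTC1, WTC2, WTD1 or WTD2). In LGL it had 900.1, 931 and 874 CPM, against 710, 703 and 697 CPM in WTL. Those groups did not overlap, and the log2 fold change was 0.38 ± 0.13 (adjusted p 0.136 unblocked, 0.0277 with the replicate block). The remaining groups had 1163, 1120 and 742 CPM in LGE, 918, 908 and 697 CPM in LGC and 696, 705 and 1096 CPM in WTE, and replicate 3 stood apart in each.

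TAT1 (YBR069C) and TAT2 (YOL020W) encode permeases for aromatic amino acids, TAT2 being the high-affinity tryptophan permease. TAT1 was the 1 gene of the set called higher in the mutant in plain YPD by edgeR's unblocked fit of all 6 libraries. It had 283, 288 and 131 CPM in LGD, against 111, 110 and 93.1 CPM in WTD. The groups did not overlap, although LGD3 lay much nearer the control libraries than LGD1 and LGD2 did. The log2 fold change was 1.14 ± 0.29, a level 2.20-fold higher (adjusted p 0.0237), and the call was lost without LGD1, LGD2, WTD1, WTD2 or WTD3 (0.0725 to 0.0888) and with replicates 1 and 2 summed (0.184). In LGL it had 88.6, 67.8 and 112.5 CPM, below every library of LGD, and it fell by 1.38 ± 0.33 (adjusted p 0.0379, and 0.128 to 0.157 without LGL1, LGL2, LGD1 or LGD2). WTL had 123, 121 and 159 CPM, all above LGL (log2 fold change -0.57 ± 0.21, adjusted p 0.165 unblocked and 0.0179 with the replicate block).

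In the control strain TAT1 rose with ethanolamine and with choline. It had 125, 140.1 and 167 CPM in WTE and 154, 161 and 135 CPM in WTC, all above WTD. It rose by 0.48 ± 0.13 in WTE (adjusted p 0.0309, and 0.0765 to 0.0945 without WTE2, WTD1, WTD2 or WTD3) and by 0.55 ± 0.10 in WTC (adjusted p 0.0115, and 0.0524 without WTC2). In the mutant TAT1 had 135, 136 and 254 CPM in LGE and 186.5, 190.4 and 76.6 CPM in LGC, and both groups overlapped LGD.

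TAT2 had 191, 191.5 and 165 CPM in LGC, against 272.5, 266 and 258 CPM in WTC. LGC lay wholly below WTC, and TAT2 fell by 0.57 ± 0.10 on the log2 scale (adjusted p 0.0154, and 0.0629 to 0.0871 without LGC1, LGC2, WTC1 or WTC2). In LGL it had 148, 141 and 181 CPM, against 261, 255 and 203 CPM in LGD, and it fell by 0.61 ± 0.16 (adjusted p 0.0483, and 0.159 to 0.198 without LGL1, LGL2, LGD1 or LGD2). WTL had 228, 233 and 244 CPM, all above LGL (log2 fold change -0.57 ± 0.13, adjusted p 0.0732 unblocked and 0.0121 with the replicate block). In the control strain TAT2 was higher in WTC than in WTD, which had 218, 212 and 189.5 CPM, by 0.39 ± 0.08 (adjusted p 0.0191, and 0.0641 to 0.0782 without WTC1, WTC2, WTD1 or WTD2). It had 184, 179 and 210.4 CPM in LGE, below the 237, 251 and 297 CPM of WTE, and that log2 fold change of -0.47 ± 0.15 did not pass (adjusted p 0.171).

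CAN1 (YEL063C) encodes the arginine permease and was called in 0 of the 10 pairwise comparisons by edgeR's unblocked fits of 2 groups. It had 190, 205 and 154 CPM in LGD, against 209, 217 and 204 CPM in WTD, which overlapped (log2 fold change -0.22 ± 0.13, adjusted p 0.205). It had 174, 171 and 123.5 CPM in LGC, below the 228, 234 and 206 CPM of WTC. The log2 fold change was -0.54 ± 0.15 (adjusted p 0.0531 unblocked, 0.0265 with the replicate block, for which same-numbered libraries correlated at 0.11 to 0.18). The DESeq2 Wald test (adjusted p 0.0108) and the fit of all 24 libraries (0.043) also called it lower there. In LGL it had 126, 133 and 162 CPM, below the 177, 180 and 232.5 CPM of WTL (log2 fold change -0.47 ± 0.16, adjusted p 0.147 unblocked and 0.014 with the replicate block). LGE had 180, 177 and 265 CPM and WTE had 197, 195 and 249 CPM, which overlapped (log2 fold change -0.06 ± 0.20).

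Whether a supplement acted differently in the 2 strains was tested with an interaction term, the log2 effect in the mutant minus that in the control strain. For ethanolamine 3 of 9 were called, with 5.3% of genes called, 2.8% higher and 2.5% lower. DIP5 had an interaction of 1.71 ± 0.40 (adjusted p 0.0329), AGP1 of 0.94 ± 0.21 (0.0257) and GAP1 of 0.93 ± 0.20 (0.0221). Their log2 fold changes were 0.80, -0.05 and -0.16 in LGE against LGD, and -0.91, -0.99 and -1.09 in WTE against WTD, in the order DIP5, AGP1 and GAP1. The DIP5 call was lost without LGD1, LGD2, WTE1, WTE2, WTD1, WTD2 or WTD3 (0.0721 to 0.0886), the AGP1 call without LGE1, LGE2, LGD1, LGD2, WTE1, WTE2, WTD1 or WTD2 (0.0519 to 0.087), and the GAP1 call without LGD1, LGD2, WTE1, WTD1 or WTD2 (0.0622 to 0.0695).

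For tergitol with lyso-PE 3 of 9 were called, with 25.2% of genes called, 12.2% higher and 13% lower. TAT1 had an interaction of -1.74 ± 0.39 (adjusted p 0.00898) and TAT2 of -0.79 ± 0.19 (0.012), and both calls held without any 1 of the 12 libraries (up to 0.0285 and 0.0388). GNP1 had -1.12 ± 0.29 (0.0179, and 0.0522 to 0.0546 without LGL2, LGD1 or LGD2). These 3 genes fell in LGL relative to LGD, while their values in WTL relative to WTD were 0.37 ± 0.14, 0.19 ± 0.09 and 0.22 ± 0.16 for TAT1, TAT2 and GNP1 and did not pass. For choline 1 of 9 was called, with 0.863% of genes called, 0.448% higher and 0.416% lower. It was GAP1, at 1.09 ± 0.18 (0.0337, and 0.0674 to 0.108 without LGC1, LGD1, LGD2, WTC1, WTC2, WTD1 or WTD2). With replicates 1 and 2 summed, 0 of the 7 interactions were called (adjusted p 0.203 to 0.664), with 0% to 0.0314% of all genes called.

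Replicate 3 lay apart from the other 2 libraries for several of the 9 genes, and the direction differed between groups. In LGD, LGC and WTD it was the lowest library for 7 of the 9 genes and in WTC for 8. In WTE it was the highest for 8 and in LGE and LGL for 6. The share of all genes with replicate 3 lowest or highest was not counted. These counts therefore describe the libraries and are no result about the permease genes. For TAT1 the log2 CPM of replicate 3 less the mean of the other 2 libraries was -1.13 in LGD and -1.30 in LGC, but 0.91 in LGE. For DIP5 it was 1.15 in WTE, -1.48 in WTL and -0.92 in WTC, but -0.05 in WTD and 0.00 in LGD. Over all genes the median absolute difference of replicate 3 was 0.16 to 0.42 per group, against 0.07 to 0.12 between replicates 1 and 2. The part of this spread in the group differences above was not tested beyond leaving out single libraries, summing replicates 1 and 2 and blocking on the replicate number.

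**Figure D4:**
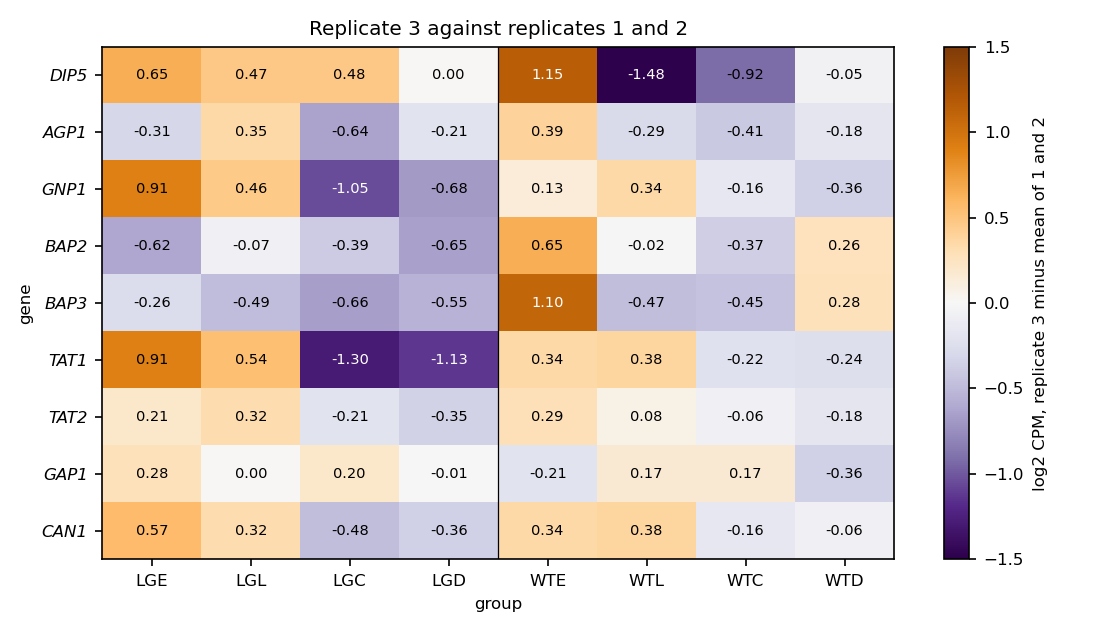
Log2 CPM of replicate 3 less the mean of the other 2 libraries, for each permease gene (rows) and group (columns), purple where replicate 3 was lower and orange where it was higher. The LGC and LGD columns are mostly purple, down to -1.30 for TAT1, and the WTE column is mostly orange, up to 1.15 for DIP5.

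The other amino acid permeases moved mostly downward in the mutant in plain YPD. Of 11 such genes tested, 7 fell and 0 rose in LGD against WTD, where 17.3% of all genes were called lower, with a median log2 fold change of -0.89 beside 0.01 for all genes. The list was chosen with earlier results of these data known, so its count is a description and no test of the list. The methionine permease genes MUP1 and MUP3 fell by 1.63 ± 0.14 and 1.57 ± 0.29, AGP2, a plasma membrane regulator of polyamine and carnitine uptake, by 1.62 ± 0.26, the proline permease gene PUT4 by 1.44 ± 0.31, and MMP1, for S-methylmethionine, by 0.98 ± 0.13 (adjusted p 0.00101, 0.0078, 0.00527, 0.0136 and 0.00305). MUP1 had 181, 184 and 236 CPM in LGD, against 647.5, 621 and 563.5 CPM in WTD, and the groups did not overlap. PUT4 was lost without WTD1 (0.056) or WTD2 (0.0541). The count of genes that fell was 5 to 7 without any 1 library, where 17.4% to 58% of all genes were called in either direction. It was 0 with replicates 1 and 2 summed, where 1.53% of all genes were called.

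Of 11 SPS pathway genes, 3 fell and 0 rose in LGD against WTD, a share near that of all genes (17.3% lower and 36.8% called in either direction), so the count is no result about the pathway. They were ASI1 (log2 fold change -0.78 ± 0.09, adjusted p 0.00188) and ASI2 (-0.69 ± 0.13, 0.00815), whose products at the inner nuclear membrane keep uncleaved Stp1 and Stp2 from acting, and PTR2 (-0.44 ± 0.13, 0.0354), the peptide transporter gene. The PTR2 call was lost without LGD1, LGD2, WTD1 or WTD2 (0.0523 to 0.126). The sensor gene SSY1 (0.09 ± 0.09), STP1 (0.17 ± 0.09) and STP2 (-0.27 ± 0.12) did not pass (adjusted p 0.486, 0.165 and 0.119). STP1 was higher in LGC, at 67.0, 74.1 and 71.7 CPM, than in WTC, at 42.9, 43.0 and 51.3 CPM (log2 fold change 0.61 ± 0.11, adjusted p 0.0152), a call lost without LGC2 (0.0654), WTC1 (0.0855) or WTC2 (0.0909). SSY1 fell in LGL relative to LGD by 0.50 ± 0.13 (adjusted p 0.0463, and 0.154 to 0.18 without LGL1, LGL2, LGD1 or LGD2).

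Of 9 genes of permease traffic, 3 fell and 1 rose in LGD against WTD, also near the share of all genes. With the replicate block 1 fell and 1 rose, with 20.7% of all genes called. The genes that fell were ECM21 (log2 fold change -1.07 ± 0.19, adjusted p 0.00676), an adaptor of the ubiquitin ligase, RSP5 itself (-0.50 ± 0.10, 0.0113) and the adaptor gene BUL1 (-0.52 ± 0.15, 0.0329), and BUL2, its paralog, rose by 0.45 ± 0.11 (0.0199). ECM21 kept its call without any 1 library (up to 0.0328). The RSP5 call was lost without LGD1, LGD2, WTD1 or WTD2 (0.0511 to 0.0605), the BUL1 call without any of those or WTD3 (0.0666 to 0.109), and the BUL2 call without LGD1, LGD2, WTD1 or WTD3 (0.0543 to 0.0766). SHR3, the packaging chaperone gene, had 291, 275 and 215 CPM in LGD, against 213, 209.6 and 209 CPM in WTD, and did not pass (0.28 ± 0.13, adjusted p 0.137). It fell in LGL relative to LGD, at 171, 160 and 137 CPM, by 0.74 ± 0.17 (adjusted p 0.0341, and 0.101 to 0.15 without LGL1, LGL2, LGD1 or LGD2). Of 9 tested genes of nitrogen catabolite regulation 1 fell in LGD against WTD, below the 17.3% of all genes, the GATA factor gene GLN3 (-0.47 ± 0.12, adjusted p 0.0233, and 0.063 to 0.0748 without LGD1, LGD2, WTD1, WTD2 or WTD3). In the fit of all 24 libraries GLN3 was not called and GAT1, named after its value was seen, was higher in LGD (0.45, adjusted p 0.0345). With replicates 1 and 2 summed, 0 genes of these 3 lists were called in LGD against WTD, where 1.53% of all genes were called.

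For each permease gene, the genes whose log2 CPM followed it most closely over the 24 libraries were looked up among 5789 genes. Libraries of a group share strain, medium and the shift of replicate 3, so the coefficients are descriptions. DIP5 was followed most closely by ARG4 (Pearson r of 0.94), which encodes an enzyme of arginine synthesis, and AGP1 by MET5 and SER33 (0.88 and 0.86). GAP1 was followed by MET3 and PEX32 at 0.80 and 0.79, the weakest of the set with BAP2, whose closest were YHB1 and GND1 (0.86 and 0.79). The closest genes were RPO31 and NEW1 for TAT1 (0.95 and 0.94), RHB1 and NSG1 for TAT2 (0.89 and 0.88), WSC2 and NVJ3 for GNP1 (0.93 and 0.91), YKL033W-A and AST1 for BAP3 (0.91 each), and ERD1 and YPQ2 for CAN1 (0.91 and 0.90). Among the 9 permease genes themselves, GNP1 and CAN1 had the highest coefficient, 0.85, followed by GNP1 and TAT1 (0.83), TAT2 and CAN1 (0.78), GNP1 and TAT2 (0.72) and AGP1 and GAP1 (0.67). The chromosome II neighbours TAT1 and BAP2 had 0.42, and the lowest coefficient was -0.45, between BAP2 and GAP1.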

How the data were processed

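Total RNA was prepared by hot phenol extraction and sequenced as standard Illumina libraries, per the labels' protocols, with 24 libraries in 8 groups of 3. The 7 deposited tables each hold 2 groups, and per the file headers they give read counts per gene, a signal (counts divided by a size factor, set by the authors within each table), FPKM, and the log2 fold changes with p-values of the authors' own comparison. Only the counts were used. STAR 2.5, HTSeq 0.6.1, DESeq2 and CASAVA are named in the submitters' processing notes, without their roles, and the genome build, annotation and strandedness are not given in the sources used here. Start and end matched R64 for 5915 of the 5924 genes found in its RefSeq table. Counts of a library listed in more than 1 table were the same (0 differences), and 0 columns were left unmapped.

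Counts were tested over all genes with edgeR 4.0.16's quasi-likelihood test in R 4.3.3, with TMM scaling, the filterByExpr filter and a Benjamini-Hochberg adjusted p threshold of 0.05. Pairwise comparisons used their 6 libraries and interactions 12, and the script was tested on simulated data. Levels use TMM factors over all 24 libraries, so a ratio of levels differs slightly from a fitted fold change. Alternatives were DESeq2 1.42.0's Wald test and size factors, no filter, all 24 libraries in one fit, the replicate number as a block, replicates 1 and 2 summed, and each library left out. A block was read beside a result where libraries of the 2 groups with the same number departed from their own group's mean in a like way, with a correlation across genes above 0.1 for all 3 numbers. Such correlations ran from -0.47 to 0.61, and 4 comparisons met this (LGL vs WTL, LGC vs WTC, LGC vs LGD and WTE vs WTD), although no label ties a number to a day or batch. The permease genes and the 4 lists of related genes were chosen with earlier results of these data known. Named by rule were the 9 permease genes, up to 5 called genes per list with the largest change in LGD vs WTD, SHR3, SSY1, STP1, STP2 and GLN3 always, and the 2 genes of most similar pattern per permease gene among those with a mean of at least 50 counts, of which 1 is not reported here. Windows and coding sequences were read from the R64 genome with Python 3.11.15 and Biopython 1.88.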

Additional observations from a re-analysis of the deposited data

Results flagged for a closer look

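The effect of a supplement differed between the strains, by the interaction term of edgeR's quasi-likelihood test at an adjusted p under 0.05, in 7 cases. The share of all genes called was 5.3% for ethanolamine, 25.2% for lyso-PE medium and 0.863% for choline. The 3 of 9 called for lyso-PE medium lay near the share there. For ethanolamine the log2 effect in the mutant minus that in the control strain was 1.71 for DIP5, 0.94 for AGP1 and 0.93 for GAP1. For tergitol with lyso-PE it was -1.12 for GNP1, -1.74 for TAT1 and -0.79 for TAT2. For choline it was 1.09 for GAP1. The TAT1 and TAT2 values for lyso-PE medium kept an adjusted p under 0.05 without any 1 of their 12 libraries. Each of the other values lost it in at least 1 such fit, and 0 of the 7 kept it with replicates 1 and 2 summed.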

How the results depend on the processing

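Of 117 values (9 genes in 13 comparisons) 29 were called, and 0 of these changed sign without any 1 library. Of the 29, 9 kept their call without any 1 library and 20 lost it in at least 1 such fit. The calls kept numbered 29 of 29 with the DESeq2 Wald test and with its size factors, 28 without a filter, 22 with all 24 libraries in one fit, 15 with the replicate block and 3 with replicates 1 and 2 summed (DIP5 in LGD vs WTD, AGP1 and GAP1 in WTE vs WTD). The summed fit has fewer libraries by construction. Other causes were not tested. Depth was not varied, and the lowest count of a permease gene in a library was 296.

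The number of permease genes called without any 1 library is given with the share of all genes called over the same fits. It was 3 to 8 in LGD vs WTD (17.4% to 58%, 8 without LGD3) and 0 to 1 in LGE vs WTE (0.0479% to 13.4%). In LGL vs WTL it was 0 to 5 (0% to 17.7%), in LGC vs WTC 1 to 4 (2.75% to 36.2%) and in LGL vs LGD 0 to 6 (0.016% to 33.2%). For the control strain it was 2 to 6 in WTE vs WTD (10.6% to 43.1%), 0 to 4 in WTL vs WTD (1.6% to 29.1%) and 1 to 6 in WTC vs WTD (6.51% to 30.6%). For the interactions it was 0 to 5 for ethanolamine (2.37% to 23.7%), 2 to 3 for lyso-PE medium (15% to 35%) and 0 to 5 for choline (0.0636% to 23.5%). The share of all genes called moved as well, in LGD vs WTD from 17.4% without WTD1 to 58% without LGD3. With replicates 1 and 2 summed the number was 1 in LGD vs WTD, with 1.53% of all genes called, 2 in WTE vs WTD, with 4.65%, and 0 in the other 8 pairwise comparisons and all 3 interactions, with 0% to 0.225%. With the replicate block it was 6 in LGL vs WTL (20.1% of all genes called), 5 in LGC vs LGD (24.6%) and 5 in WTE vs WTD (33.6%). The block gave 0 in LGL vs LGD (0%), 0 in WTL vs WTD (0.0163%) and 0 in WTC vs WTD (0.946%). It gave 1 for the ethanolamine (3.04%) and 2 for the choline interaction (6.88%). With the DESeq2 Wald test the number was 6 in LGL vs WTL (13.2% of all genes called), 5 in LGC vs WTC (27.7%) and 1 in LGE vs LGD (2.83%). That test gave 1 in LGC vs LGD (5.26%), 5 in WTE vs WTD (28.4%), 2 in WTL vs WTD (20.8%) and 3 for the choline interaction (11.2%). With all 24 libraries the number was 1 in LGE vs WTE (8.37% of all genes called), 4 in LGL vs WTL (10.4%) and 5 in LGC vs WTC (18.9%). That fit gave 1 in WTC vs WTD (1.33%) and 2 for the choline interaction (0.712%). With DESeq2 size factors it was 2 for the choline interaction (1.07%).

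Signs changed only for values that were not called. With the replicate block BAP2 was 0.00 in LGE vs LGD and DIP5 was -0.10 in WTL vs WTD. With replicates 1 and 2 summed BAP2 was 0.00 in LGE vs LGD and -0.02 in WTL vs WTD, DIP5 was -0.16 in WTL vs WTD, and GNP1 and BAP3 were 0.01 and 0.04 in WTE vs WTD. TAT1 was 0.01 in LGC vs WTC with all 24 libraries. Without any 1 library, 25 values that were not called crossed 0. In LGE vs WTE they ran from -0.67 to 0.06 for DIP5, -0.04 to 0.47 for GNP1, -0.09 to 0.41 for TAT1 and -0.26 to 0.07 for CAN1. In LGL vs WTL BAP3 ran from -0.18 to 0.11, and in LGC vs WTC AGP1 ran from -0.23 to 0.13 and TAT1 from -0.22 to 0.30. In LGE vs LGD the ranges were -0.13 to 0.03 for AGP1, -0.34 to 0.23 for GNP1, -0.19 to 0.16 for BAP2 and -0.04 to 0.31 for CAN1. In LGL vs LGD BAP3 ran from -0.06 to 0.25, and in LGC vs LGD DIP5 ran from -0.00 to 0.27 and AGP1 from -0.15 to 0.15. In the control strain BAP3 ran from -0.59 to 0.09 and CAN1 from -0.10 to 0.10 in WTE vs WTD, DIP5 from -0.19 to 0.38 and BAP2 from -0.04 to 0.13 in WTL vs WTD, and BAP3 from -0.17 to 0.04 in WTC vs WTD. Among the interactions GNP1 ran from -0.25 to 0.29, BAP3 from -0.33 to 0.35 and CAN1 from -0.07 to 0.28 for ethanolamine, AGP1 from -0.07 to 0.16 and GAP1 from -0.08 to 0.12 for lyso-PE medium, and DIP5 from -0.23 to 0.17 for choline.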

Other observations

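In the control strain the methionine permease genes MUP1 and MUP3 were called lower with each supplement. MUP1 had 191, 195 and 214 CPM in WTE, 330.3, 329 and 221 CPM in WTL and 296, 295 and 249 CPM in WTC, against 647.5, 621 and 563.5 CPM in WTD. The log2 fold change was -1.59 ± 0.12 in WTE, -1.05 ± 0.17 in WTL and -1.10 ± 0.11 in WTC (SE, adjusted p 0.000223, 0.0127 and 0.00186, edgeR). MUP3 had log2 fold changes of -1.43 ± 0.09, -1.01 ± 0.16 and -1.12 ± 0.07 in the same order (adjusted p 0.000113, 0.012 and 0.000612). In WTL the MUP1 and MUP3 calls were lost without WTD1 (0.0711 and 0.0653) or WTD2 (0.0647 each). With replicates 1 and 2 summed, the adjusted p in WTE, WTL and WTC was 0.0137, 0.182 and 0.0588 for MUP1 and 0.00547, 0.169 and 0.0434 for MUP3. The 3 comparisons share the WTD libraries. Of the 11 other amino acid permease genes, 7 fell in WTE, 4 in WTL and 4 in WTC, and 0 rose, where 11%, 5.92% and 9.05% of all genes were called lower. These counts were 7, 0 and 2 with the replicate block, where 33.6%, 0.0163% and 0.946% of all genes were called in either direction. With all 24 libraries in one fit they were 4, 2 and 2 (7.59%, 2.89% and 1.33%). With replicates 1 and 2 summed they were 3, 0 and 1 (4.65%, 0% and 0.225%). The list of 11 genes was chosen with earlier results of these data known, so its counts are descriptions and no test of the list.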
